A study of Homo sapiens with 12 samples.

Results

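K562 cells that had received both nilotinib and hemin were compared with K562 cells that had received neither agent. The samples were chosen by their treatment labels: 3 hemin nilotinib samples and 3 mock DMSO samples, 6 of the 12 in the series. Of 58735 genes in the count table, the 20821 that passed an expression filter were tested. K562 is an established human line from chronic myeloid leukemia in blast crisis; it carries the BCR-ABL1 fusion kinase and can make fetal and embryonic hemoglobin. Nilotinib inhibits the ABL1 kinase, and hemin is heme with its iron oxidized. By the study's methods, cells were held for 24 h in 0.1% DMSO alone or with 0.1 µM nilotinib. Then 50 µM hemin was added, and RNA was taken at 0 h or after 24 h of hemin. Messenger RNA was read by paired-end sequencing, and each value is the number of reads assigned to a gene.

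The hemin nilotinib group had nilotinib, DMSO and 24 h of hemin, and the mock DMSO group had DMSO without either agent. By the column names and the study's methods the mock groups were collected at 0 h, a time that the sample labels do not give. Nilotinib, hemin and, if so, the time of collection change together between these groups, and their parts cannot be told apart from this comparison. The other 6 samples are 3 mock nilotinib samples (0.1 µM nilotinib, no hemin, 0 h) and 3 hemin DMSO samples (50 µM hemin for 24 h, no nilotinib). Their values are set beside the comparison where they show which single treatment had a like value. Every group has 3 biological replicates of the same line, so a p sets a difference against the spread between cultures. In the main fit that spread was estimated over all 12 samples.

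BCR-ABL1 signals through the RAS and ERK cascade, through STAT5 and toward MYC, and these outputs keep leukemic cells dividing and immature. As red cell precursors mature, GATA1, TAL1 and KLF1 switch on globins, heme enzymes and membrane proteins, while the progenitor factors MYB and GATA2 recede. Free heme displaces the repressor BACH1 from genes that NRF2 activates, and unfolded protein releases HSF1, which turns on heat shock genes.

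Total counts lay between 35333809 and 40874699 in hemin nilotinib and between 40418880 and 50506990 in mock DMSO. CPM below means counts per 1000000 after TMM scaling in edgeR, and values are in the order of replicates 1, 2 and 3. The 3 mock DMSO samples were close to each other (Pearson r over all genes tested 0.990 to 0.992 on log2 CPM). Hemin nilotinib samples were less alike, with r = 0.969 for replicates 1 and 3, 0.981 for 1 and 2, and 0.986 for 2 and 3. Replicate 1 was closer to mock nilotinib replicate 1 (r = 0.985) than to either other sample of its own group. Mitochondrial genes took 7.19%, 5.30% and 3.88% of counts in hemin nilotinib and 5.47%, 6.68% and 5.95% in mock DMSO.

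The identity of the line was checked on its known markers. HBG1 (fetal gamma globin) stood at 116, 176 and 293 CPM in mock DMSO and 1842, 1519 and 2161 CPM in hemin nilotinib. CDKN2A and CDKN2B, which K562 has lost, had 0 counts in each of the 12 samples, where 3 counts would be 0.0594 to 0.0897 CPM. These genes bear on the identity of the line, which all samples share, and not on the treatment labels. In bulk RNA, fewer cells of a kind and less RNA per cell cannot be told apart.

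Hemin nilotinib and mock DMSO differed across a large part of the transcriptome. Under the quasi-likelihood F test of edgeR, with p adjusted over all genes by the Benjamini-Hochberg method, 9698 genes (46.6%) passed an adjusted p of 0.05. Of these, 5044 (24.2% of genes tested) were higher and 4654 (22.4%) were lower in hemin nilotinib. Among the genes that passed, 5518 (26.5% of genes tested) also changed at least 2-fold, with 3113 (15.0%) higher and 2405 (11.6%) lower. For 11428 genes (54.9%) the 3 samples of one group all lay beyond the 3 of the other. The median log2 fold change of all genes was 0.06, and upper-quartile scaling raised that median by 0.108. The balance of directions depends on scaling: without composition factors, 4402 genes were higher and 5134 lower.

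Set against mock nilotinib, hemin nilotinib differed in fewer genes: 1208 (5.80%), of which 733 (3.52%) were higher and 475 (2.28%) lower. That count rests on single libraries. It was 2793 without hemin nilotinib replicate 1, 286 without hemin nilotinib replicate 2, 213 without mock nilotinib replicate 2, 234 without mock nilotinib replicate 3 and 782 without mock DMSO replicate 2. With a replicate block it was 1587. Against hemin DMSO, 13359 genes (64.2%) differed, 6748 (32.4%) higher and 6611 (31.8%) lower. The single treatments share the mock DMSO samples with the main comparison. Mock nilotinib differed from them in 8851 genes (42.5%), 4304 (20.7%) higher and 4547 (21.8%) lower, and hemin DMSO in 11156 (53.6%), 5360 (25.7%) higher and 5796 (27.8%) lower.

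**Figure D1:**
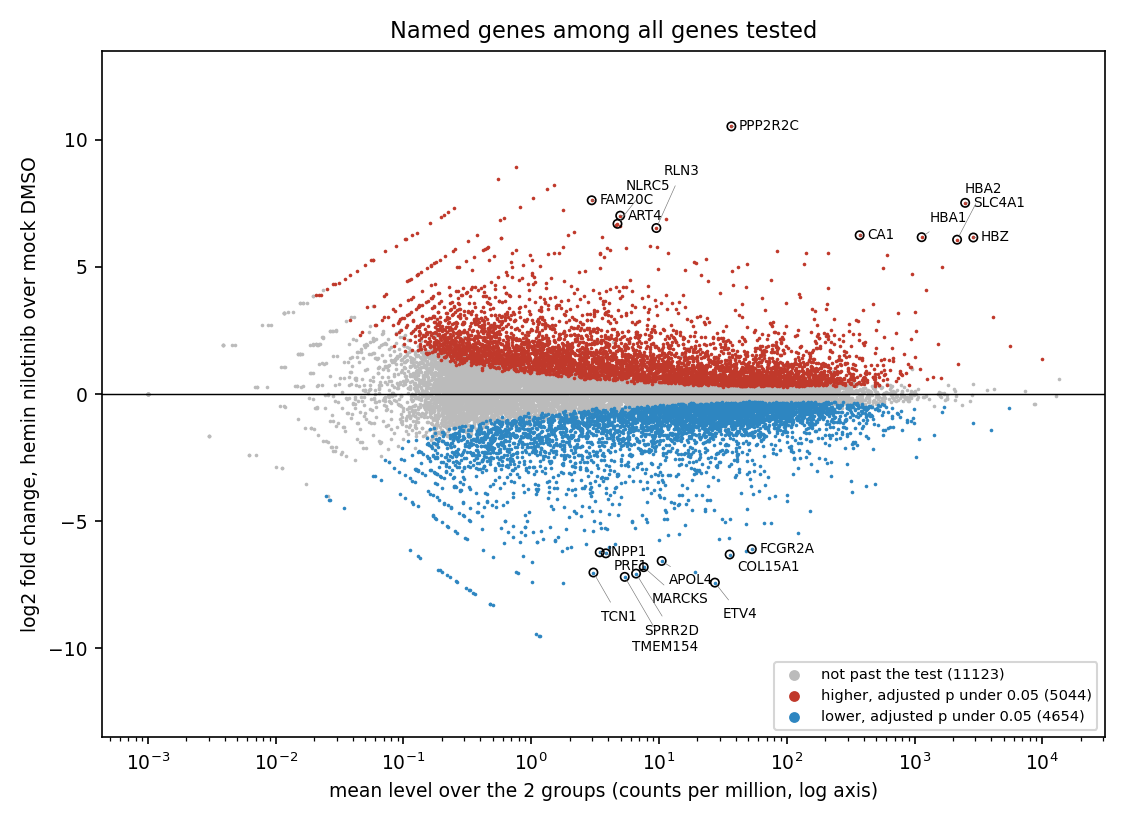
Each point is one of the 20821 genes tested, with its mean level over hemin nilotinib and mock DMSO in CPM on a log axis and its log2 fold change between them. Red points (5044) were higher and blue points (4654) lower at an adjusted p under 0.05, and the 20 circled genes are the 10 highest and 10 lowest protein-coding genes by the naming rule, from PPP2R2C at 10.53 to ETV4 at -7.41.

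Red cell genes made up much of the top of the list. SLC4A1 (ENSG00000004939, chr17:44248385-44268141, GRCh38), which encodes the anion exchanger band 3 of the red cell membrane, had 7.81, 27.4 and 45.8 CPM in mock DMSO and 4725, 5211 and 4932 CPM in hemin nilotinib. The groups were far apart, and the mock DMSO samples had the larger ratio between highest and lowest. SLC4A1 had a log2 fold change of 7.52 (SE 0.52, edgeR adjusted p = 1.35e-08), with means of 4956 ± 244 and 27.0 ± 19.0 CPM (SD, n = 3 in each group). Without mock DMSO replicate 3, the highest of its group, the log2 fold change was 8.12. The gene stood at 3677, 4844 and 5396 CPM in mock nilotinib and at 6.8, 3.83 and 6.29 CPM in hemin DMSO, so its level was high wherever nilotinib was present.

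Globins rose with it. Of 11 globin and globin chaperone genes tested, 10 were higher and 0 lower (24.2% and 22.4% over all genes), with a median log2 fold change of 3.24 against 0.06 over all genes. The medians of the single treatments were 3.07 for mock nilotinib and 0.90 for hemin DMSO. HBZ (ENSG00000130656, chr16:152687-154503), the embryonic zeta globin, stood at 42.4, 78.9 and 118 CPM in mock DMSO and 8630.2, 5236 and 3215 CPM in hemin nilotinib. No hemin nilotinib sample came near the mock DMSO range, and HBZ had a log2 fold change of 6.16 (SE 0.41, edgeR adjusted p = 9.82e-09). AHSP (ENSG00000169877, chr16:31527864-31528803), a chaperone that binds free alpha globin, went from 1.53, 3.12 and 5.44 to 218, 152 and 123 CPM. Its samples did not overlap between the groups, with a log2 fold change of 5.61 (SE 0.39, edgeR adjusted p = 1.61e-08).

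HBA1 and HBA2, the adult alpha globins, are nearly identical in sequence, so reads may be shared between them. HBA2 (ENSG00000188536, chr16:172876-173710) stood at 36.1, 72.1 and 81.4 CPM in mock DMSO and 4209.7, 4176 and 4354 CPM in hemin nilotinib, with a log2 fold change of 6.07 (SE 0.30, edgeR adjusted p = 5.43e-10). HBA1 (ENSG00000206172, chr16:176680-177522) stood at 21.4, 35.8 and 36.3 and 4133, 1465 and 1132 CPM, and hemin nilotinib replicate 1 was the highest of its group. It had a log2 fold change of 6.17 (SE 0.45, edgeR adjusted p = 2.32e-08), and 5.38 without that replicate. Gamma globin also rose, by a log2 fold change of 3.24 for HBG1 and 2.45 for HBG2, as did HBD (2.71) and HBQ1 (1.68). HBE1, the embryonic epsilon globin, was the one that did not pass, at a log2 fold change of 0.81 (edgeR adjusted p = 0.081). It passed without mock DMSO replicate 3 (1.21, adjusted p = 0.0243), without hemin nilotinib replicate 1 (0.96, adjusted p = 0.0425), and with a replicate block (0.83, adjusted p = 0.0422). HBE1 and HBG2 lie within overlapping gene models of the beta globin cluster, and HBZ overlaps HBM, so the assignment of reads among them is uncertain. Per kilobase of gene length, HBZ had the highest mean of these genes in hemin nilotinib (7408 ± 3613 FPKM, SD, n = 3), above HBA2 (5027 ± 41.6 FPKM) and HBG1 (1085 ± 175 FPKM).

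The pathway that makes heme moved in a split way. Of its 10 genes, 8 were higher and 2 lower (24.2% and 22.4% over all genes), with a median of 1.82 (mock nilotinib 1.99, hemin DMSO -0.93). ALAS2 (ENSG00000158578, chrX:55009055-55031064), the erythroid form of the first enzyme, had 80.3, 159.6 and 163 CPM in mock DMSO and 2730.0, 2321 and 1912 CPM in hemin nilotinib. All hemin nilotinib samples lay above all mock DMSO samples, with a log2 fold change of 4.11 (SE 0.27, edgeR adjusted p = 7.42e-09). ALAS1, the form made in all tissues, fell instead, from 26.3, 29.7 and 29.6 to 13.1, 15.5 and 17.0 CPM, with a log2 fold change of -0.91 (SE 0.15, edgeR adjusted p = 1.64e-04). FECH (2.52), which inserts the iron, PPOX (2.35) and UROS (2.28) rose, and SLC25A38 (-0.88), which carries glycine for the first step into mitochondria, fell. In hemin DMSO, ALAS2 stood at 49.9, 58.6 and 43.5 CPM, below the mock DMSO samples, and in mock nilotinib at 2419.9, 3352 and 3223 CPM.

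Of 22 genes of the red cell membrane and its skeleton, 21 were tested, 19 were higher and 1 was lower (24.2% and 22.4% over all genes), with a median of 2.10 (mock nilotinib 1.98, hemin DMSO -0.67). EPB42 (ENSG00000166947, chr15:43197227-43221125), which joins band 3 to the skeleton, stood at 2.37, 6.11 and 9.21 CPM in mock DMSO and 233, 292 and 305 CPM in hemin nilotinib. The samples did not overlap, and EPB42 had a log2 fold change of 5.55 (SE 0.37, edgeR adjusted p = 1.06e-08). KEL (ENSG00000197993, chr7:142941114-142962681), the Kell blood group protein, went from 56.5, 76.5 and 80.9 to 683, 625 and 835 CPM, with a log2 fold change of 3.32 (SE 0.17, edgeR adjusted p = 7.53e-10). SPTB, a beta spectrin, and ANK1, an ankyrin, rose too, by 2.34 and 1.36 on the log2 scale. TMCC2 was the member that fell, at 24.8, 22.3 and 22.8 CPM in mock DMSO and 5.06, 9.94 and 12.5 CPM in hemin nilotinib, with a log2 fold change of -1.34 (SE 0.27, edgeR adjusted p = 7.81e-04).

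The promoter sequences of the 10 highest and 10 lowest genes and of the heme, globin and membrane lists were searched for GATAA, the core letters that GATA1 reads, on either strand in 250 bases before to 50 after the start that the RefSeq table uses, which can differ from the gene starts given above. Such a match is a description of the letters only. Among all 27305 promoters of the RefSeq table (GRCh38.p14), 6334 (23.2%) held GATAA. Of the 10 highest genes, 4 had a promoter in the table and 2 of these held it, and of the 10 lowest, 7 had one and 2 held it. Among genes with an entry, GATAA was in 2 of 8 in the heme list, 2 of 2 in the globin list and 8 of 15 in the membrane list. The letters CACCC, which KLF1 reads, were in 3 of the 4 promoters of the highest genes, 2 of the 7 of the lowest and 16075 of all promoters (58.9%). The promoters of ALAS2 (chrX:55030928-55031227, minus strand), EPB42 (chr15:43220969-43221268, minus strand) and KEL (chr7:142962314-142962613, minus strand) are shown as members of the heme and membrane lists that hold GATAA, and not as typical of them. Capitals mark GATAA or, on the other strand, TTATC.
ALAS2: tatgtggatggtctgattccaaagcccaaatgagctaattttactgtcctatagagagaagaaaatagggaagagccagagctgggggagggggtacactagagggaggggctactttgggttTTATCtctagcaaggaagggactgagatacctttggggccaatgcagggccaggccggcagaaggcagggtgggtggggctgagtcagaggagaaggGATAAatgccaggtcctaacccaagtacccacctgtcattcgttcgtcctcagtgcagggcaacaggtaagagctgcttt
EPB42: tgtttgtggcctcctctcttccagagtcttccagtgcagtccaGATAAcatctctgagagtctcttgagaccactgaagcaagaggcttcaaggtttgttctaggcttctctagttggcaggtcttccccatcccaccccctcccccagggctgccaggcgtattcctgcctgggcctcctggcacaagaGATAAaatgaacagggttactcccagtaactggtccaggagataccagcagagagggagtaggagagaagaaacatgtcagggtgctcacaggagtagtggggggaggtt
KEL: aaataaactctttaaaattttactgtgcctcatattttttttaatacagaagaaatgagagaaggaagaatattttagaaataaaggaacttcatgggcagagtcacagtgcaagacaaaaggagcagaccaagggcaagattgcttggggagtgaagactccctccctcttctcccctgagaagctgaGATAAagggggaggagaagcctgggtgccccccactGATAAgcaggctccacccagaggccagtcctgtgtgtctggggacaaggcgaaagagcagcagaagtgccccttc

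Of 15 listed factors that direct red cell genes, 14 were tested, 10 were higher and 2 lower (24.2% and 22.4% over all genes), with a median of 0.80 (mock nilotinib 1.02, hemin DMSO -1.41). KLF1 (ENSG00000105610, chr19:12884422-12887199), an activator of globin and membrane genes, stood at 223, 301 and 329.6 CPM in mock DMSO and 751, 609 and 530.4 CPM in hemin nilotinib. All hemin nilotinib samples were above the mock DMSO samples, with a log2 fold change of 1.15 (SE 0.16, edgeR adjusted p = 3.40e-05). TAL1 (1.60), LMO2 (1.81) and GFI1B (1.35) rose as well. GATA1 had 268, 296 and 325 CPM in mock DMSO and 330.4, 306 and 315 CPM in hemin nilotinib. Its groups overlapped, and it did not pass the test (log2 fold change 0.10, edgeR adjusted p = 0.592, and -0.0044 without mock DMSO replicate 1).

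The members of this list that fell were MYB and GATA2. MYB (ENSG00000118513, chr6:135181315-135219173), which holds progenitors in division, stood at 302, 309 and 311 CPM in mock DMSO and 36.0, 41.9 and 35.2 CPM in hemin nilotinib. No sample of one group was near the other, with a log2 fold change of -3.03 (SE 0.19, edgeR adjusted p = 4.83e-09). GATA2, which GATA1 replaces during maturation, fell from 208, 209.6 and 214 to 68.4, 81.6 and 103 CPM, with a log2 fold change of -1.32 (SE 0.17, edgeR adjusted p = 1.51e-05). MYB was low in each treated group, at 38.2, 36.9 and 33.9 CPM in mock nilotinib and 29.9, 57.2 and 48.9 CPM in hemin DMSO. KLF1, by contrast, was at 682, 747 and 769.7 CPM in mock nilotinib and 23.6, 22.2 and 26.2 CPM in hemin DMSO.

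**Figure D2:**
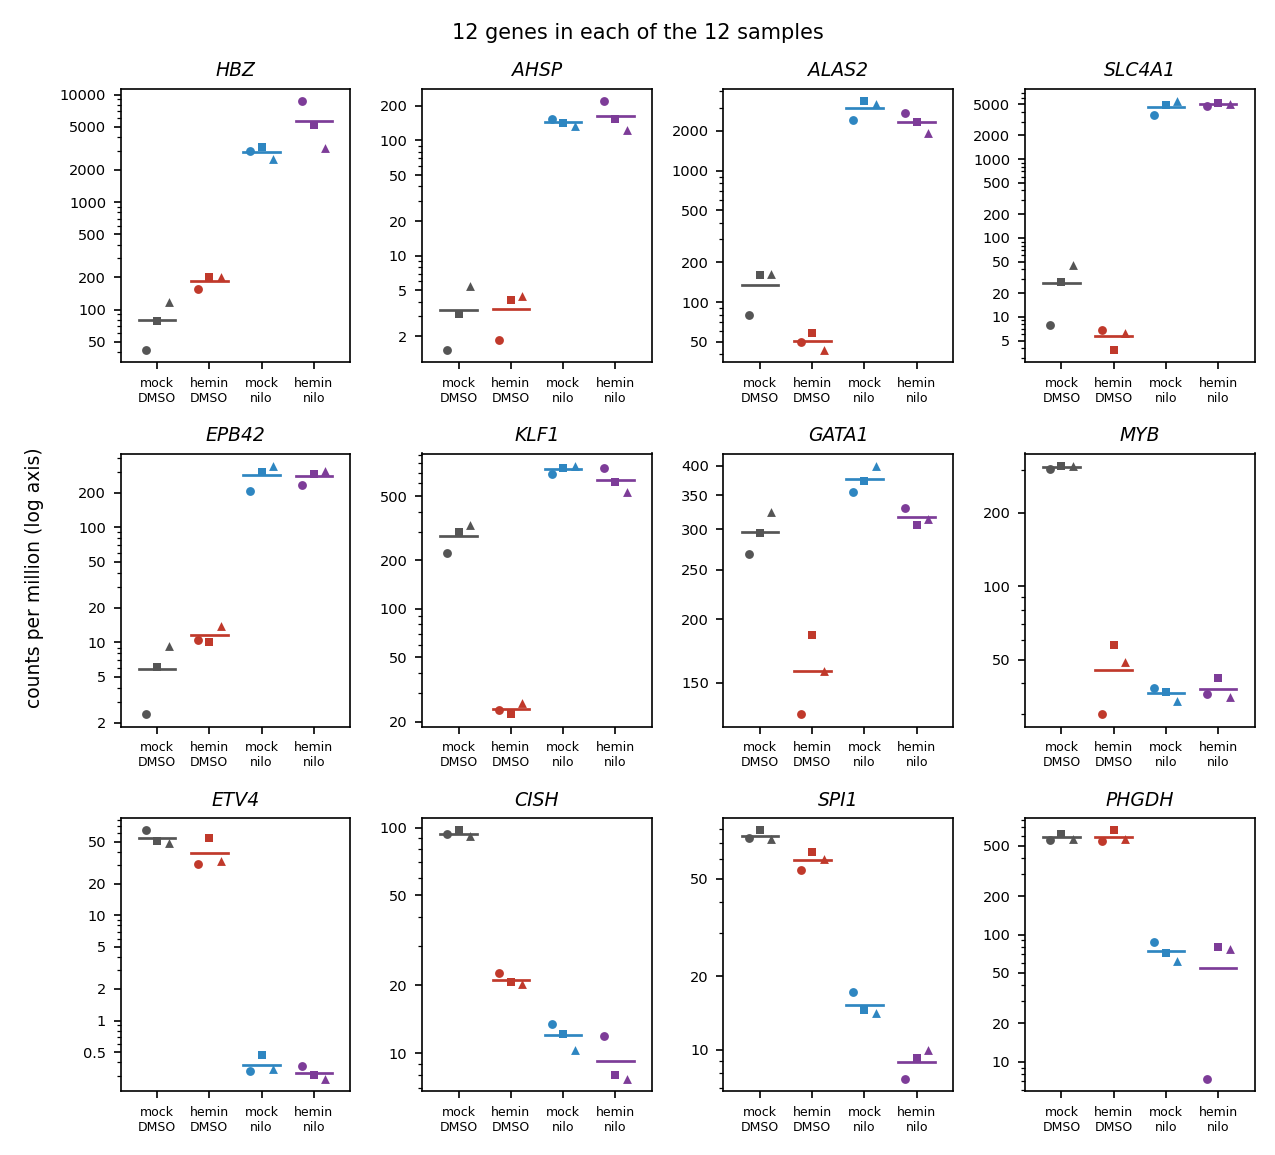
Levels of 12 genes in all 12 samples, in CPM on a log axis that differs between panels; circles, squares and triangles are replicates 1, 2 and 3, and the line is the group mean. HBZ, AHSP, ALAS2, SLC4A1, EPB42 and KLF1 were higher, and MYB, ETV4, CISH, SPI1 and PHGDH lower, in every hemin nilotinib sample than in every mock DMSO sample, whereas GATA1 overlapped.

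Genes of late maturation followed, with 10 of 15 tested (16 listed) higher and 0 lower (24.2% and 22.4% over all genes), and a median of 1.70 (mock nilotinib 1.86, hemin DMSO -0.68). EPOR (ENSG00000187266, chr19:11377205-11384342), the erythropoietin receptor, stood at 33.8, 41.5 and 49.6 CPM in mock DMSO and 203, 134 and 132 CPM in hemin nilotinib. Its samples did not overlap, with a log2 fold change of 1.91 (SE 0.18, edgeR adjusted p = 5.51e-07). CA1 (ENSG00000133742, chr8:85327608-85379014), a carbonic anhydrase of red cells, went from 3.53, 10.4 and 15.2 to 955, 743 and 505 CPM, with a log2 fold change of 6.25 (SE 0.43, edgeR adjusted p = 1.34e-08). HEMGN (2.04), BPGM (2.18), which makes 2,3-bisphosphoglycerate, and SLC2A1 (2.47), the red cell glucose carrier, rose as well.

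Iron handling showed 8 of 14 genes higher and 0 lower (24.2% and 22.4% over all genes), with a median of 1.02 (mock nilotinib 0.84, hemin DMSO -0.66). Their sum, with FTL the most abundant, was 5379.8, 7338 and 7507 CPM in mock DMSO and 20231, 24115 and 24112 CPM in hemin nilotinib. Both single treatments also lay above mock DMSO, with 14603, 17608 and 19239 CPM in mock nilotinib and 22764, 20255 and 17005 CPM in hemin DMSO. SLC25A37 (ENSG00000147454, chr8:23528805-23575463), which brings iron into mitochondria, stood at 686, 946 and 1037 CPM in mock DMSO and 6316, 7071 and 8715 CPM in hemin nilotinib, with a log2 fold change of 3.05 (SE 0.24, edgeR adjusted p = 4.77e-08). The ferritin light chain FTL (ENSG00000087086, chr19:48965301-48966878) stood at 1843, 2673 and 2578 and 6072, 10665 and 9728 CPM, with a log2 fold change of 1.90 (SE 0.23, edgeR adjusted p = 6.37e-06). Its lowest hemin nilotinib value, in replicate 1, was still above each mock DMSO value. TFRC, the transferrin receptor, had 414, 658 and 844 CPM in mock DMSO and 2845, 519 and 429 CPM in hemin nilotinib, and only replicate 1 lay above the mock DMSO samples. Its log2 fold change was 0.99 (edgeR adjusted p = 0.116). It was -0.44 (0.122) without hemin nilotinib replicate 1, 1.32 (0.0416) without replicate 2 and 1.37 (0.0171) without replicate 3. With every sample and all genes of at least 1 count tested, it passed (0.96, 2.92e-08).

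Heat shock genes formed a further group, and here the 3 hemin nilotinib samples were unlike each other. The 17 heat shock genes summed to 4902, 5269 and 5432 CPM in mock DMSO and 7204, 13715 and 23391 CPM in hemin nilotinib. In hemin DMSO the sum was 102787, 115361 and 95080.3 CPM and in mock nilotinib 4594, 3756 and 3451 CPM. All 3 hemin nilotinib sums lay above those of both mock groups and below each hemin DMSO sum, with replicate 3 the highest and replicate 1 the lowest. Against mock DMSO 14 of 17 genes were higher and 1 lower (24.2% and 22.4% over all genes), with a median of 1.37 (mock nilotinib -0.05, hemin DMSO 4.30). Against mock nilotinib 14 were higher and 0 lower (3.52% and 2.28% over all genes). This list count was not redone without single libraries, on which the number of calls in that comparison rests. HSPA8 missed the threshold there without mock nilotinib replicate 2 or 3 (log2 0.86 to 0.99, edgeR adjusted p 0.0628 to 0.0630). Against hemin DMSO 1 was higher and 16 were lower (32.4% and 31.8% over all genes). In hemin nilotinib the mitochondrial share of counts was lowest in replicate 3 and highest in replicate 1, and its part in these levels was not tested.

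HSPA1A (ENSG00000204389, chr6:31815464-31817946), an inducible HSP70 chaperone nearly identical to HSPA1B, had 102, 96.9 and 101 CPM in mock DMSO and 332, 2384 and 6788 CPM in hemin nilotinib. It had 30098, 32563 and 28816 CPM in hemin DMSO, above every other sample. HSPA1A had a log2 fold change of 4.99 (SE 0.70, edgeR adjusted p = 2.75e-05) against mock DMSO, and 3.73 without hemin nilotinib replicate 3. Against mock nilotinib its log2 fold change was 4.95 (edgeR adjusted p = 0.00132), and 3.72 without that replicate. HSP90AA1 (1.96), the inducible HSP90, DNAJA1 (1.37), HSPB1 (2.02) and BAG3 (1.27) rose against mock DMSO. HSPD1, the mitochondrial chaperonin, fell (-0.73). The HSPA1A promoter (chr6:31815293-31815592, plus strand, RefSeq, GRCh38.p14) is shown with GAANNTTC, paired units of the letters that HSF1 reads, in capitals. That motif was in 0 of the 4 promoters of the 10 highest genes, 0 of the 7 of the 10 lowest and 1875 of all 27305 (6.87%), searched on both strands.
HSPA1A: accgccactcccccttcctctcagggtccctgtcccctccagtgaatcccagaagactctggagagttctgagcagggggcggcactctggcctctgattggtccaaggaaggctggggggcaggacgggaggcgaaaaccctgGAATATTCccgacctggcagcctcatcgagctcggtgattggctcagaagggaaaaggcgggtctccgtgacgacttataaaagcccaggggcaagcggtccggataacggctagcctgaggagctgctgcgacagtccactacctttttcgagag

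Targets of heme and NRF2 were also uneven. The 19 genes summed to 1317, 1429.9 and 1508 CPM in mock DMSO and 1888, 3836 and 4269.6 CPM in hemin nilotinib, with replicate 1 the lowest of the latter. Of these genes 16 were higher and 1 lower (24.2% and 22.4% over all genes), with a median of 1.41 (mock nilotinib -0.52, hemin DMSO 2.36), or 0.84 by limma on log2(FPKM + 1). Against mock nilotinib 15 were higher and 0 lower (3.52% and 2.28% over all genes). This list count was not redone without single libraries, on which the number of calls in that comparison rests. OSGIN1 (ENSG00000140961, chr16:83948282-83966332), an oxidative stress gene, had 7.05, 9.18 and 9.69 CPM in mock DMSO and 160.5, 457 and 609 CPM in hemin nilotinib. Each hemin nilotinib sample was far above each mock DMSO sample, with a log2 fold change of 5.56 (SE 0.39, edgeR adjusted p = 1.50e-08). NQO1 (ENSG00000181019, chr16:69706996-69726951), a quinone reductase, went from 31.1, 34.2 and 32.0 to 63.4, 119 and 121 CPM, with a log2 fold change of 1.64 (SE 0.22, edgeR adjusted p = 1.81e-05). Against mock nilotinib the log2 fold change was 6.56 for OSGIN1 (edgeR adjusted p = 2.13e-07) and 4.11 for NQO1 (2.13e-07). GCLM (1.68) and GCLC (1.51), the subunits of the enzyme that starts glutathione synthesis, TXNRD1 (1.41) and SRXN1 (1.77) rose too. HMOX1, heme oxygenase 1, was low without hemin and highest with hemin alone. It had 3, 5 and 7 counts in mock DMSO, 14, 69 and 94 in hemin nilotinib and 1035, 2254 and 1624 in hemin DMSO, and a log2 fold change of 3.87 (SE 0.61, edgeR adjusted p = 9.00e-05). With limma on log2(FPKM + 1) it missed the threshold (0.59, adjusted p = 0.0746). Neither the motif TGACTCA nor CACGTG was in a promoter of the 10 highest or 10 lowest genes with an entry; on either strand TGACTCA was in 1344 of all promoters (4.92%) and CACGTG in 2030 (7.43%).

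**Figure D3:**
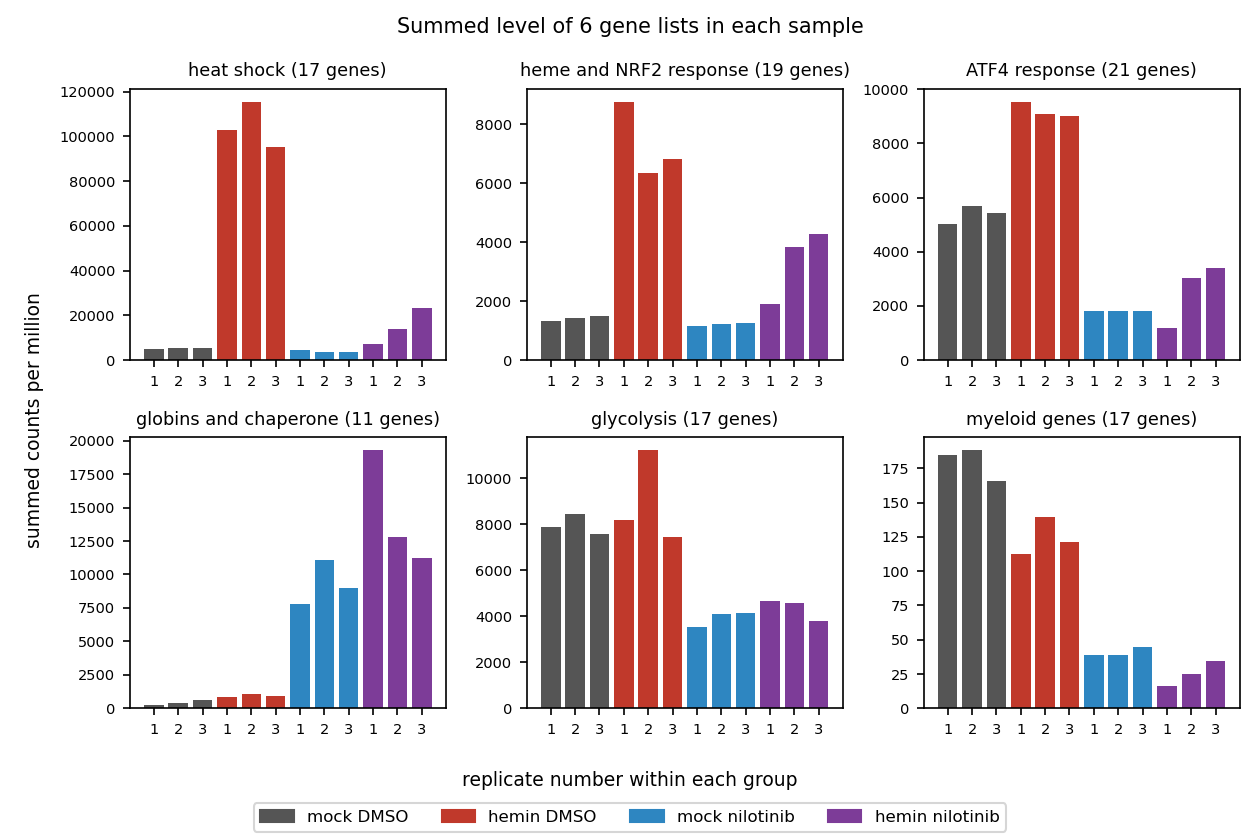
Summed CPM of 6 gene lists in each sample, from 0, with bars grouped by treatment and numbered by replicate. The heat shock sum of hemin nilotinib (7204, 13715 and 23391 CPM) lay between the mock groups and hemin DMSO, while globin sums were highest, and myeloid sums lowest, in hemin nilotinib.

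Of 15 genes tested downstream of the ERK cascade (18 listed), 10 were lower and 1 was higher (22.4% and 24.2% over all genes), with a median of -1.54 (mock nilotinib -1.57, hemin DMSO 0.96), and -0.69 by limma on log2(FPKM + 1). ETV4 (ENSG00000175832, chr17:43527844-43579620), a transcription factor induced by ERK, had 64.0, 51.3 and 48.1 CPM in mock DMSO and 0.374, 0.302 and 0.28 CPM in hemin nilotinib. The groups did not overlap, and ETV4 had a log2 fold change of -7.41 (SE 0.29, edgeR adjusted p = 1.15e-10). It overlaps DHX8 on the other strand, so its low counts may include reads of that gene. SPRY4 (ENSG00000187678, chr5:142310427-142326455), a feedback inhibitor of the cascade, went from 27.0, 23.0 and 18.5 to 0.345, 0.549 and 0.561 CPM, with a log2 fold change of -5.54 (SE 0.26, edgeR adjusted p = 3.66e-10). The immediate early gene EGR1 (-3.14) and the feedback inhibitors SPRED1 (-2.18) and SPRED2 (-1.13) fell as well.

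STAT5 targets showed 9 of 11 lower and 1 higher (22.4% and 24.2% over all genes), with a median of -1.91 (mock nilotinib -2.63, hemin DMSO -0.69). CISH (ENSG00000114737, chr3:50606490-50611831), which dampens cytokine signals, had 93.3, 97.1 and 91.7 CPM in mock DMSO and 11.9, 7.99 and 7.71 CPM in hemin nilotinib. The hemin nilotinib samples all lay below, with a log2 fold change of -3.36 (SE 0.17, edgeR adjusted p = 8.01e-10), and CISH overlaps MAPKAPK3 on the other strand. SOCS2 (ENSG00000120833, chr12:93569814-93583487), another inhibitor of cytokine signals, went from 111, 102 and 94.6 to 8.16, 6.42 and 5.66 CPM, with a log2 fold change of -3.92 (SE 0.17, edgeR adjusted p = 2.32e-10). PIM1 (-1.09), PIM2 (-1.91) and BCL2L1 (-1.70), which encodes the survival protein BCL-XL, fell too. OSM, the cytokine oncostatin M, was the member that rose (2.60), from 7, 4 and 9 counts to 24, 33 and 37 counts.

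The MYC and ribosome biogenesis list had 13 of 21 genes lower and 3 higher (22.4% and 24.2% over all genes), with a median of -0.76 (mock nilotinib -1.01, hemin DMSO -0.19). MYC (ENSG00000136997, chr8:127735434-127741434) stood at 233, 279 and 292 CPM in mock DMSO and 85.3, 85.1 and 73.3 CPM in hemin nilotinib, without overlap and with a log2 fold change of -1.72 (SE 0.13, edgeR adjusted p = 3.42e-08). NCL (-1.12), nucleolin, and NPM1 (-1.40), nucleophosmin, fell, while MXD4 (1.34), a MYC antagonist, and UBTF (1.44), a factor for ribosomal RNA genes, rose. Of 16 tested among BCR-ABL1, adaptor and nilotinib target genes (17 listed), 4 were lower and 0 higher (22.4% and 24.2% over all genes), with a median of -0.20 (mock nilotinib -0.17, hemin DMSO -0.10), or -0.10 with upper-quartile factors. KIT (ENSG00000157404, chr4:54657918-54740715), the receptor for stem cell factor, had 22.4, 31.1 and 27.9 CPM in mock DMSO and 1.52, 2.09 and 1.61 CPM in hemin nilotinib, with a log2 fold change of -3.96 (SE 0.29, edgeR adjusted p = 2.38e-08). The adaptor GAB2 (-2.46), STAT5A (-1.52) and CBL (-1.13) were the others that fell, and BCR stood at -0.21 (edgeR adjusted p = 0.159). Reads of the fusion are not separated from those of its parent genes here.

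Of 17 glycolysis genes 12 fell and 0 rose (22.4% and 24.2% over all genes), with a median of -0.76 (mock nilotinib -1.17, hemin DMSO -0.05). Their sum was 7869, 8436 and 7591 CPM in mock DMSO and 4656, 4572 and 3788 CPM in hemin nilotinib. HK2 (ENSG00000159399, chr2:74833981-74893359), an inducible hexokinase, had 64.1, 62.5 and 55.6 CPM in mock DMSO and 1.41, 2.75 and 1.85 CPM in hemin nilotinib. No samples overlapped, with a log2 fold change of -4.92 (SE 0.24, edgeR adjusted p = 4.66e-10). SLC2A3 (-5.07), a glucose carrier, PKM (-3.85), pyruvate kinase, and LDHA (-2.16), lactate dehydrogenase, fell as well, while the carrier SLC2A1 rose.

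The ATF4 list, which holds serine synthesis and stress genes, had 13 of 21 lower and 1 higher (22.4% and 24.2% over all genes), with a median of -1.41 (mock nilotinib -1.72, hemin DMSO 0.17). PHGDH (ENSG00000092621, chr1:119648411-119744226), the first enzyme of serine synthesis, had 561, 622 and 563 CPM in mock DMSO and 7.36, 80.5 and 77.0 CPM in hemin nilotinib. All hemin nilotinib samples were lower, replicate 1 by far the most, and PHGDH had a log2 fold change of -3.40 (SE 0.53, edgeR adjusted p = 7.19e-05). PSAT1 (-2.53) and PSPH (-2.36), the next enzymes, TRIB3 (-2.73) and MTHFD2 (-1.97) fell. PPP1R15A, which restores translation after stress, rose (1.16). The list summed to 5007, 5694 and 5419.9 CPM in mock DMSO and 1199, 3034 and 3393 CPM in hemin nilotinib, again with replicate 1 the lowest. Cholesterol synthesis had 6 of 15 lower and 0 higher (22.4% and 24.2% over all genes), with a median of -0.41 (mock nilotinib -0.74, hemin DMSO -0.91), and among them DHCR7 (-1.14) and IDI1 (-0.94).

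Of 17 myeloid genes 12 were tested, 9 were lower and 0 higher (22.4% and 24.2% over all genes), with a median of -2.74 (mock nilotinib -2.02, hemin DMSO -0.57; -0.73 by limma on log2(FPKM + 1)). Their sum was 185, 188 and 166 CPM in mock DMSO and 16.2, 25.1 and 34.7 CPM in hemin nilotinib, with AZU1 the most abundant by mean in hemin nilotinib. SPI1 (ENSG00000066336, chr11:47354860-47378576), the factor PU.1 that drives myeloid genes, had 73.4, 78.7 and 72.7 CPM in mock DMSO and 7.62, 9.22 and 9.98 CPM in hemin nilotinib, without overlap and with a log2 fold change of -3.07 (SE 0.15, edgeR adjusted p = 4.23e-10). CSF3R (-5.03), CD33 (-4.16) and LYZ (-3.69) fell too. Megakaryocyte genes were split, with 4 of 10 tested (17 listed) higher and 4 lower (24.2% and 22.4% over all genes) and a median of -0.55 (mock nilotinib -0.40, hemin DMSO -0.35). That median was -0.29 without hemin nilotinib replicate 1, -0.98 without replicate 3 and -0.18 by limma on log2(FPKM + 1). ITGA2B, the platelet integrin alpha chain, fell from 59.5, 54.3 and 34.7 to 7.24, 10.8 and 13.7 CPM, with a log2 fold change of -2.22 (SE 0.31, edgeR adjusted p = 2.63e-05), and TUBB1, a platelet tubulin, rose from 7.27, 17.7 and 25.5 to 265, 250.5 and 191 CPM, with a log2 fold change of 3.81 (SE 0.32, edgeR adjusted p = 1.02e-07). Of 11 lymphoid and non-blood genes tested (14 listed), 6 were lower and 2 higher (22.4% and 24.2% over all genes), with a median of -0.95 (mock nilotinib -0.55, hemin DMSO 0.67), and -1.85 with the 6 samples of the comparison alone or -0.41 by limma on log2(FPKM + 1). Their sum was 638, 641 and 569.8 CPM in mock DMSO and 217, 299 and 309 CPM in hemin nilotinib, with KRT18 the most abundant there.

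**Figure D4:**
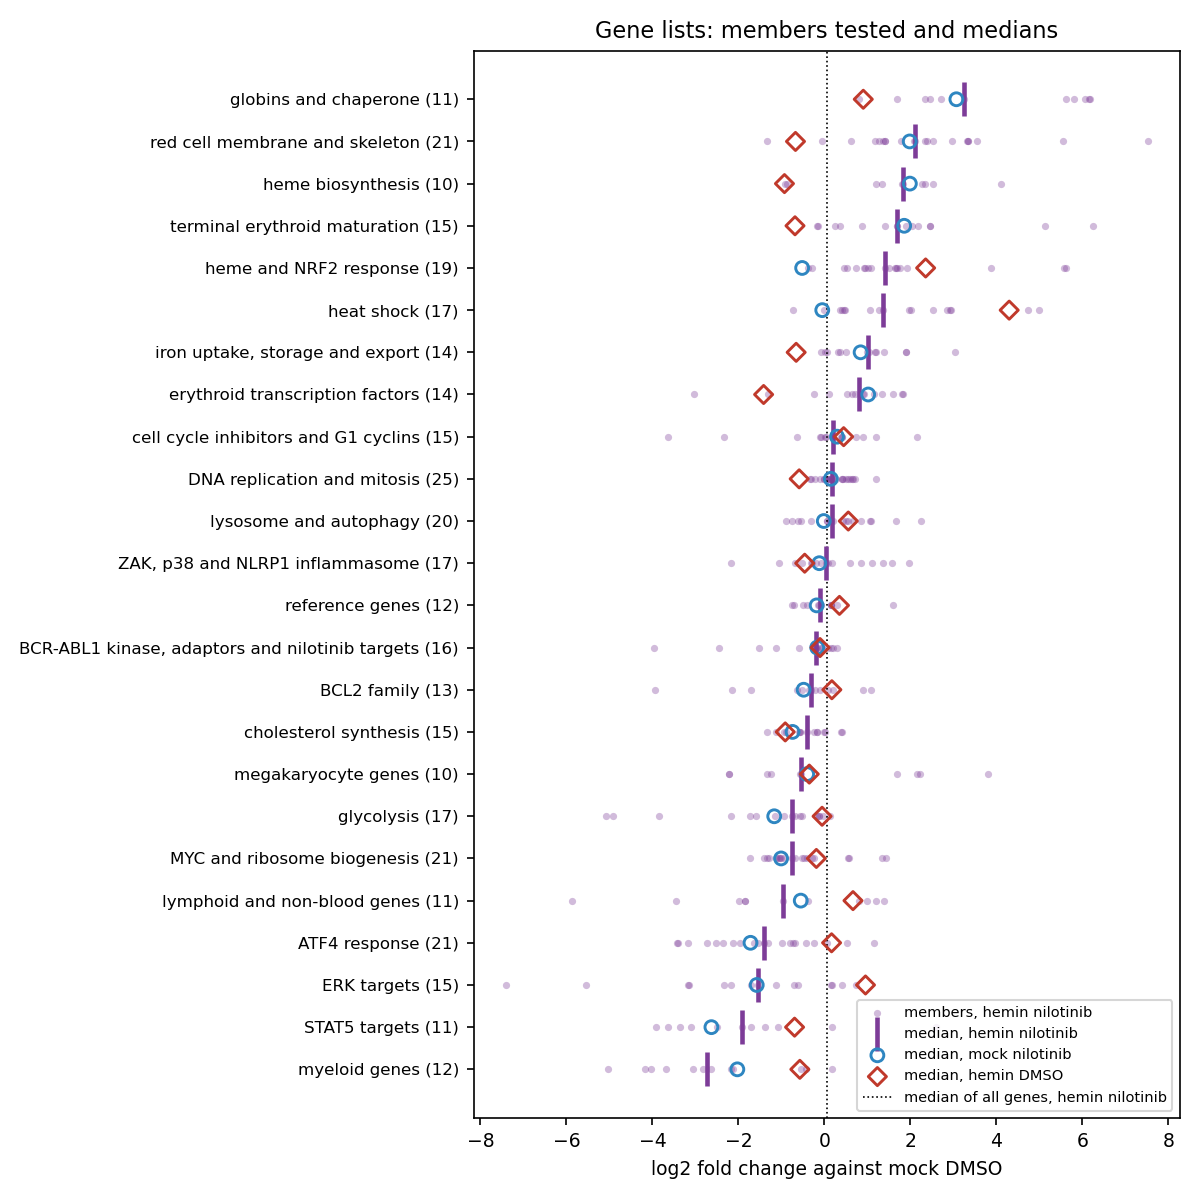
Log2 fold change against mock DMSO of the tested members of 24 gene lists (pale dots, hemin nilotinib) with list medians for hemin nilotinib (bars), mock nilotinib (circles) and hemin DMSO (diamonds); numbers in brackets are members tested, and the dotted line is the median of all genes (0.06). Globins had the highest hemin nilotinib median (3.24) and myeloid genes the lowest (-2.74, but -0.73 by limma on log2(FPKM + 1), where STAT5 targets were lowest), and the 3 comparisons share the mock DMSO samples.

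Of 25 replication and mitosis genes, 8 were higher and 1 lower (24.2% and 22.4% over all genes), with a median of 0.19 (mock nilotinib 0.15, hemin DMSO -0.59), and 0.09 without hemin nilotinib replicate 2 or 0.30 with upper-quartile factors. MKI67, the proliferation antigen Ki-67, stood at 383, 364 and 349.9 CPM in mock DMSO and 669.7, 570.5 and 487 CPM in hemin nilotinib, with a log2 fold change of 0.65 (SE 0.16, edgeR adjusted p = 0.00279). Among 15 cell cycle inhibitors and G1 cyclins, 5 were higher and 3 lower (24.2% and 22.4% over all genes), with a median of 0.21 (mock nilotinib 0.29, hemin DMSO 0.45). Without hemin nilotinib replicate 1, 2 or 3 it was 0.10, 0.08 or 0.34. CCND2 (-3.63), cyclin D2, fell while CCND3 (0.90), cyclin D3, and the inhibitor gene CDKN2C (1.20) rose. In the BCL2 family, 5 of 13 tested (14 listed) were lower and 2 higher (22.4% and 24.2% over all genes), with a median of -0.31 (mock nilotinib -0.48, hemin DMSO 0.17). That median was -0.08 without hemin nilotinib replicate 1, -0.50 without replicate 3, -0.09 by limma on log2(FPKM + 1) and -0.21 with upper-quartile factors. BCL2L11, which encodes the death inducer BIM, rose from 28.0, 32.1 and 30.1 to 71.2, 54.3 and 43.8 CPM, with a log2 fold change of 0.91 (SE 0.15, edgeR adjusted p = 1.60e-04), and overlaps MIR4435-2HG on the other strand.

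The ZAK, p38 and NLRP1 list had 6 of 17 tested (19 listed) higher and 4 lower (24.2% and 22.4% over all genes), with a median of 0.03 (mock nilotinib -0.12, hemin DMSO -0.46). That median was 0.08 without hemin nilotinib replicate 1 and 0.15 with upper-quartile factors, and between -0.05 and -0.02 in 6 alternatives: without composition factors, or without mock DMSO replicate 1, mock nilotinib replicate 2 or 3 or hemin nilotinib replicate 2 or 3. NLRP1 (ENSG00000091592, chr17:5499427-5619424), an inflammasome sensor, stood at 156, 136 and 140.4 CPM in mock DMSO and 236, 314 and 562.4 CPM in hemin nilotinib, with a log2 fold change of 1.37 (SE 0.25, edgeR adjusted p = 3.65e-04). PYCARD, the adaptor ASC, fell from 9.19, 8.63 and 6.32 to 1.41, 2.36 and 1.57 CPM, with a log2 fold change of -2.18 (SE 0.31, edgeR adjusted p = 3.20e-05), and MAP3K20, which encodes ZAK, had a log2 fold change of 0.60 (edgeR adjusted p = 8.18e-04). Lysosome and autophagy genes had 9 of 20 higher and 5 lower (24.2% and 22.4% over all genes), with a median of 0.18 (mock nilotinib -0.01, hemin DMSO 0.56; 0.11 without hemin nilotinib replicate 2 or without composition factors, and 0.28 with upper-quartile factors), among them the autophagy receptor SQSTM1 (2.25). Of 12 genes often used as references, 1 was higher and 4 were lower (24.2% and 22.4% over all genes), with a median of -0.10 (mock nilotinib -0.18, hemin DMSO 0.35), and 0.01 with upper-quartile factors or -0.16 without composition factors. Without mock DMSO replicate 1 or 2 it was -0.18 or -0.06, without mock nilotinib replicate 2 or 3 -0.15, and without hemin nilotinib replicate 3 -0.05. ACTB fell (-0.70), and GAPDH did not pass (-0.12, edgeR adjusted p = 0.651).

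Outside the lists, the highest fold change belonged to PPP2R2C (ENSG00000074211, chr4:6320578-6563600), a regulatory subunit of protein phosphatase 2A. It had 3, 2 and 2 counts in mock DMSO and 2818, 3154 and 2285 counts in hemin nilotinib. Its groups were fully apart, as the naming rule required. The ratio of its summed counts, scaled to library totals times TMM factors, was 1547 (95% interval 751 to 3849.8). FAM20C, a secretory pathway kinase, had 1, 2 and 1 and 272, 235 and 149 counts and a ratio of 215 (95% interval 83.6 to 792). These intervals are exact Clopper-Pearson intervals and cover counting error only. ART4 (7.02), the Dombrock blood group protein, NLRC5 (6.69), which activates MHC class I genes, and RLN3 (6.53), a relaxin, complete the 10 highest with SLC4A1, CA1, HBA1, HBZ and HBA2. ART4 stood at 8.16 without mock DMSO replicate 3. RLN3 and ART4 each overlap a gene on the other strand, so their reads are uncertain.

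The 10 lowest genes began with ETV4. FCGR2A (ENSG00000143226, chr1:161505430-161524013), an Fc receptor of myeloid cells, had 133, 103 and 78.8 CPM in mock DMSO and 1.21, 2.09 and 1.31 CPM in hemin nilotinib. It was low in each hemin nilotinib sample, with a log2 fold change of -6.10 (SE 0.33, edgeR adjusted p = 1.09e-09). MARCKS, a substrate of protein kinase C, had 1045, 685 and 522 counts in mock DMSO and 6, 3 and 6 counts in hemin nilotinib, and a log2 fold change of -6.80 (SE 0.36, edgeR adjusted p = 9.22e-10). COL15A1 (-6.31), a collagen, TMEM154 (-7.19), PRF1 (-6.26), perforin, and INPP1 (-6.22), an inositol phosphatase, followed. INPP1 overlaps HIBCH on the other strand, so its few counts may include reads of that gene. TMEM154, PRF1 and INPP1 had 2, 4 and 2, 0, 5 and 6 and 2, 5 and 3 counts in hemin nilotinib. Their ratios of mock DMSO to hemin nilotinib counts were 151 (95% interval 76.6 to 351), 78.6 (95% interval 43.8 to 158) and 77.9 (95% interval 42.2 to 163), and for MARCKS 114 (95% interval 69.2 to 205). For SPRR2D, TCN1 and APOL4, with 1, 2 and 8, 1, 3 and 1 and 5, 5 and 15 counts in hemin nilotinib, as for these genes, the fitted fold depends on the counts added to low values. Their ratios of mock DMSO to hemin nilotinib counts were 133 (95% interval 74.0 to 266), 142 (95% interval 60.8 to 439.6) and 93.9 (95% interval 63.5 to 145). Fitted values were -7.06 for SPRR2D (-8.22 without hemin nilotinib replicate 3), -6.56 for APOL4 (-7.21 without the same replicate) and -7.02 for TCN1. For TCN1 the value was -6.31 without mock DMSO replicate 1 and -7.77 without hemin nilotinib replicate 2.

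Genes that set hemin nilotinib apart from every other group were sought by requiring the test to pass, with the same sign, against mock DMSO, hemin DMSO and mock nilotinib. Of 20821 genes, 125 (0.600%) lay above all other groups and 137 (0.658%) below, 262 in all. This count rests on single libraries too. It was 754 without hemin nilotinib replicate 1, 53 without replicate 2, 52 without mock nilotinib replicate 2 and 59 without mock nilotinib replicate 3. Without mock DMSO replicate 2 or 3 it was 142 or 166.

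ACSBG1 (ENSG00000103740, chr15:78167468-78245688), an acyl-CoA synthetase, was above all groups. It had 7.16, 8.51 and 9.49 CPM in hemin nilotinib, against 2.46, 2.27 and 2.06 in mock DMSO, 1.41, 1.82 and 1.62 in hemin DMSO and 2.08, 2.13 and 2.62 in mock nilotinib. The 9 other samples all lay below the hemin nilotinib samples, with a log2 fold change of 1.89 (SE 0.22, edgeR adjusted p = 3.92e-06) against mock DMSO and 1.88 (adjusted p = 3.58e-04) against mock nilotinib. ACSBG1 overlaps IDH3A on the other strand. ID3 (ENSG00000117318, chr1:23557918-23559794), an inhibitor of differentiation factors, was below all groups. Its levels were 0.661, 0.384 and 1.15 CPM in hemin nilotinib, 22.5, 20.01 and 24.4 in mock DMSO, 8.43, 13.8 and 10.1 in hemin DMSO and 6.01, 4.2 and 5.31 in mock nilotinib. The hemin nilotinib samples were the lowest of the 12, with a log2 fold change of -4.90 (SE 0.32, edgeR adjusted p = 7.09e-09) against mock DMSO and -2.80 (adjusted p = 2.34e-04) against mock nilotinib. ERICH2 (-2.10), SORBS3 (-2.26) and TLCD2 (-3.46) were below all groups as well, and kept a call against mock nilotinib without any one of the 12 libraries, as did ACSBG1 and ID3. TLCD2 missed it by limma on log2(FPKM + 1) (-0.54, adjusted p = 0.0571).

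The call against mock nilotinib was less firm for the other genes named in this class, each of which lost it without some single library. FAM20C had a log2 fold change of 1.62 against mock nilotinib (edgeR adjusted p = 0.0127). It missed the threshold without mock nilotinib replicate 2 or 3 or hemin nilotinib replicate 2 (log2 1.47 to 1.53, adjusted p 0.0629 to 0.0867). TMEM150B, a membrane protein, had 1.34 (0.0242), and missed it without mock nilotinib replicate 1, 2 or 3 or hemin nilotinib replicate 2 or 3 (log2 0.82 to 1.37, adjusted p 0.0682 to 0.101). INPP1 had -2.37 (0.0268), and missed it without mock nilotinib replicate 2 or 3 or hemin nilotinib replicate 2 or 3 (log2 -2.82 to -2.22, adjusted p 0.0603 to 0.103). Both limma fits on FPKM also missed it, for TMEM150B (log2 0.92 to 1.13, adjusted p 0.0767 to 0.0854) and for INPP1 (log2 -0.86 to -0.14, adjusted p 0.128 to 0.529).

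MT2A, a metallothionein that binds zinc, had 22.9, 105 and 48.9 CPM in hemin nilotinib and 9.88, 20.1 and 16.2 CPM in mock DMSO. Replicate 2 was the highest, and the log2 fold change against mock DMSO was 1.94, or 1.16 without it. Against mock nilotinib MT2A had 1.96 (edgeR adjusted p = 0.0219). It missed the threshold without hemin nilotinib replicate 2 (1.21, 0.131), or without mock nilotinib replicate 1, 2 or 3 (log2 1.80 to 2.15, adjusted p 0.0631 to 0.091). Both limma fits on FPKM missed it for MT2A as well (log2 1.63 to 1.70, adjusted p 0.0877 to 0.0917). REEP1, a shaper of the endoplasmic reticulum, had 16.8, 77.7 and 120.3 CPM in hemin nilotinib, 12.7, 22.4 and 28.6 in mock nilotinib and 3.31, 3.22 and 4.52 in mock DMSO. Hemin nilotinib replicate 1 lay within the mock nilotinib range and the other replicates above it. The log2 fold change was 4.28 against mock DMSO, and 3.64 without hemin nilotinib replicate 3. Against mock nilotinib it was 1.75 (edgeR adjusted p = 0.0408). That call was lost without mock DMSO replicate 1, 2 or 3 or hemin DMSO replicate 3 (log2 1.75 each time, adjusted p 0.0514 to 0.0562). The same held without mock nilotinib replicate 1, 2 or 3 or hemin nilotinib replicate 2 (log2 1.49 to 1.99, adjusted p 0.0835 to 0.136) and without hemin nilotinib replicate 3 (1.14, 0.153). It was lost as well under upper-quartile factors, no composition factors and DESeq2 (log2 1.74 to 1.78, adjusted p 0.0502 to 0.0581), and in both limma fits on FPKM (log2 1.22 to 1.39, adjusted p 0.174 to 0.196).

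**Figure D5:**
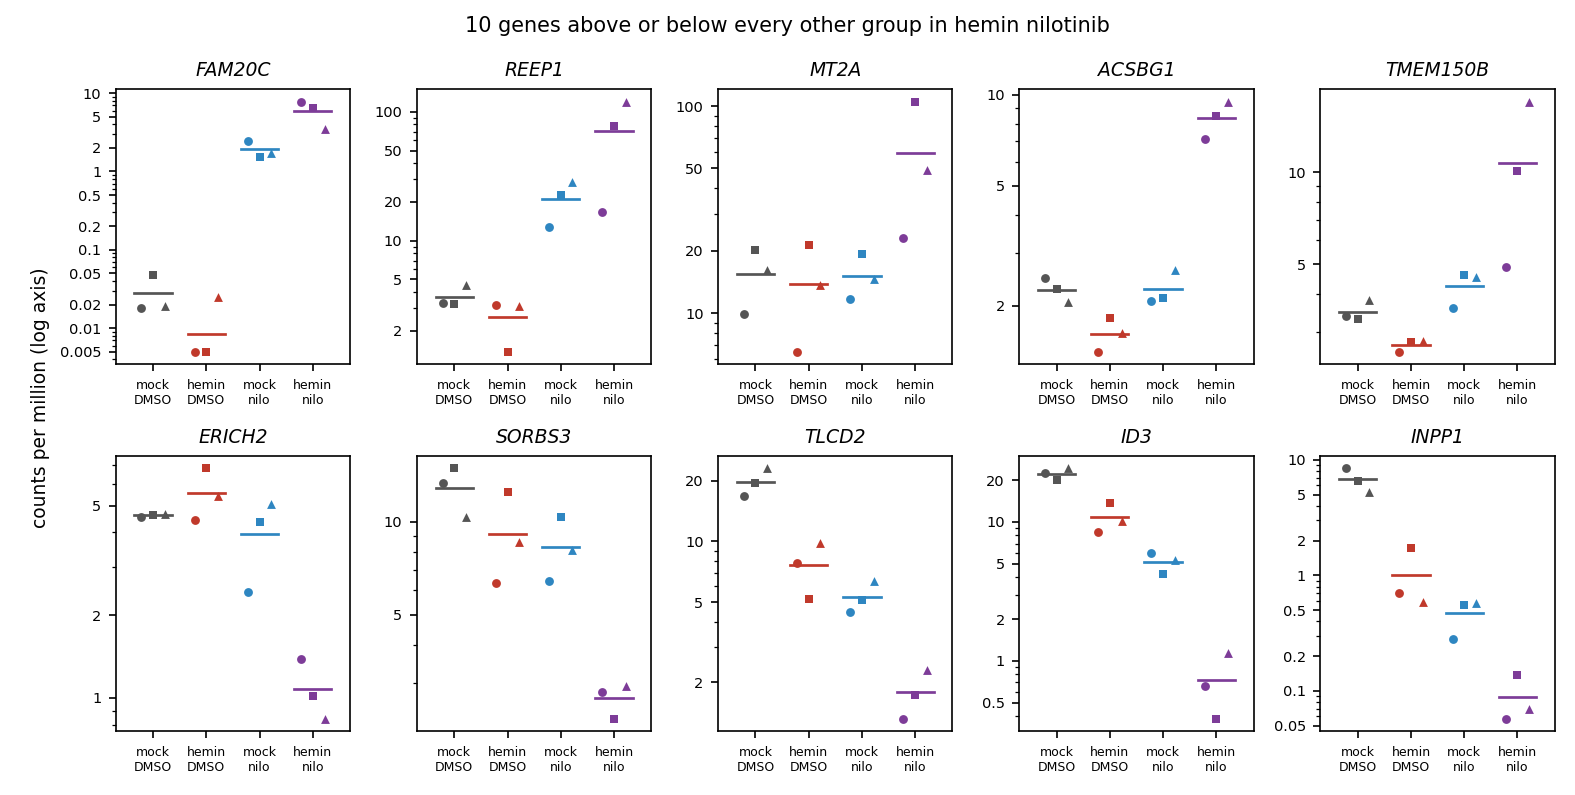
Levels of the 10 genes named as above (top row) or below (bottom row) every other group in hemin nilotinib, in CPM on a log axis that differs between panels, with samples drawn as circles, squares and triangles for replicates 1, 2 and 3, group means as lines and values of 0 drawn at 0.005. ACSBG1 and ID3 stood apart in all 3 hemin nilotinib samples, whereas REEP1 replicate 1 (16.8 CPM) lay within the mock nilotinib values.

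The last question was whether the combination equals the sum of its parts. The departure, on the log2 scale, is hemin nilotinib minus mock nilotinib minus hemin DMSO plus mock DMSO. By the column names and the study's methods, hemin samples were taken at 24 h and mock samples at 0 h. Hemin and time therefore cannot be told apart in the departure. The departure rests on 4 group means, so its error is larger than that of a comparison of groups and smaller departures are missed. It passed the test for 6271 genes (30.1%), above 0 for 3558 (17.1%) and below 0 for 2713 (13.0%). For heat shock genes the combined level was below the sum in 16 of 17 and above it in 0, with a median departure of -2.04. Among erythroid transcription factors it was above the sum in 12 of 14 and below in 0 (median 1.25), and among cholesterol synthesis genes above in 11 of 15 and below in 0 (median 1.10). The median over all genes was 0.06. SLC4A1 departed by 2.35 (SE 0.57, edgeR adjusted p = 0.006): hemin without nilotinib gave -2.26 against mock DMSO, nilotinib without hemin 7.42 and the combination 7.52. By limma on log2(FPKM + 1) the departure of SLC4A1 missed the threshold (1.46, adjusted p = 0.0552).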

How the data were processed

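Raw read counts per gene for 12 samples were deposited by the authors, who also deposited FPKM, fragments per kilobase scaled to library size; checked against the counts, the FPKM values use a factor per sample that is not the sample total. The submitters' processing notes name DESeq2 and DESeq without versions and the build GRCh38.p12; the aligner and the strand of counting are not given in the sources used here. All 58735 identifiers were found in GENCODE 29 with the same start and end.

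Counts were fitted in edgeR 4.0.16 (R 4.3.3) over all 12 samples with one mean per group, TMM factors and filterByExpr (minimum count 10, minimum total 15), and tested by the quasi-likelihood F test with Benjamini-Hochberg adjustment over 20821 genes at a threshold of 0.05. The code was tested on simulated data, where edgeR missed many 2-fold changes but few 4-fold ones, DESeq2 made more false calls than its threshold allows, and the FPKM fit with 1 added understated folds. An exact permutation of 3 against 3 samples cannot go below p = 0.10, so none is given. Total counts were 33457078 to 50506990 per sample; intervals and count floors (3 counts) cover counting error only.

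Members and the 24 lists (397 entries, all found) were chosen with earlier results of these data known. Lists are described by counts and medians, without a test, and some members are not reported by name here. Named genes are the 10 highest and 10 lowest protein-coding log2 fold changes (mean of at least 100 counts, no overlap of samples), the 5 highest and 5 lowest beyond all groups by the smallest of their 3 differences, the list members, and the 5 most abundant by FPKM. Alternatives were DESeq2 1.42.0, RLE, upper-quartile and no factors, other count filters, the 6 samples alone, a replicate block, each sample left out, a 2-fold minimum, and limma 3.58.1 trend on log2(FPKM + 1) and log2(FPKM + 0.1). Promoters are from RefSeq (GRCh38.p14). Figures were drawn with Python 3.11.15 and matplotlib 3.10.9. The deposited table of group mean FPKM was not used here.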

Additional observations from a re-analysis of the deposited data

Results flagged for a closer look

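Of the 28 genes named as extreme or as beyond all groups, 12 had an effect of nilotinib that differed between cells with and without hemin. This is by edgeR's test of the departure from the sum of the single effects, which 30.1% of all genes passed. By the column names and the study's methods, the time of collection differed together with hemin, and their parts cannot be told apart. Of the 12, ACSBG1, MT2A, REEP1, TMEM150B, ID3, ERICH2 and SORBS3 were chosen because hemin nilotinib lay beyond the other groups. The departure uses the same group means, so its p is no independent evidence for them. SLC4A1, CA1, HBA2, APOL4 and NLRC5 were chosen as extreme in hemin nilotinib against mock DMSO. The departure uses those samples too. Each value is that departure on the log2 scale with its standard error and adjusted p, followed by the effect of nilotinib with hemin and without it. Their causes were not tested.

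ACSBG1 departed by 2.36 (SE 0.31, adjusted p = 6.94e-05), from 2.37 with hemin and 0.01 without it. CA1 departed by 2.04 (SE 0.51, adjusted p = 0.00742; 8.03 and 5.98). SLC4A1 departed by 2.35 (SE 0.57, adjusted p = 0.006; 9.78 and 7.42). TMEM150B departed by 1.70 (SE 0.45, adjusted p = 0.0105; 1.98 and 0.28). Below the sum were HBA2 at -1.39 (SE 0.34, adjusted p = 0.00673; 4.10 and 5.49), ERICH2 at -2.14 (SE 0.40, adjusted p = 0.00104; -2.37 and -0.23) and ID3 at -1.75 (SE 0.39, adjusted p = 0.00372; -3.86 and -2.11). These 7 genes passed without any one of the 12 libraries. By limma on log2(FPKM + 1), however, SLC4A1 (1.46, adjusted p = 0.0552), CA1 (1.10, 0.0694) and ID3 (-0.53, 0.118) did not pass. HBA2 may share reads with HBA1, whose departure did not pass.

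The other 5 did not pass without some single library, and of these only APOL4 passed in both limma fits on FPKM. SORBS3 also missed without composition factors (-0.90, adjusted p = 0.0581). MT2A departed by 2.12 (SE 0.63, adjusted p = 0.0193; 2.10 and -0.02), and by 1.42 (0.0654) without hemin nilotinib replicate 2. REEP1 departed by 2.28 (SE 0.70, adjusted p = 0.0228; 4.80 and 2.52), and by 1.98 (0.0689) without hemin DMSO replicate 2. APOL4 departed by 1.92 (SE 0.58, adjusted p = 0.0204; -4.79 and -6.71). It missed without mock nilotinib replicate 1 or 3 or hemin nilotinib replicate 3 (log2 1.35 to 1.69, adjusted p 0.0523 to 0.132), and was 2.78 without mock nilotinib replicate 2. NLRC5 departed by -2.36 (SE 0.74, adjusted p = 0.0246; 4.51 and 6.87), and missed without mock DMSO replicate 1, hemin DMSO replicate 2 or mock nilotinib replicate 2 (log2 -2.16 to -1.64, adjusted p 0.0543 to 0.122). SORBS3 departed by -1.13 (SE 0.35, adjusted p = 0.0243; -1.76 and -0.63). It missed without mock DMSO replicate 1 or 3, hemin DMSO replicate 2, mock nilotinib replicate 2 or hemin nilotinib replicate 2 (log2 -1.08 to -0.85, adjusted p 0.0578 to 0.0869).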

How the results depend on the processing

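Without any one of the 12 samples, the main comparison had 7764 to 10733 changed genes (3875 to 5585 higher, 3870 to 5148 lower). Hemin nilotinib against hemin DMSO had 12608 to 13828, mock nilotinib against mock DMSO 7103 to 9964, hemin DMSO against mock DMSO 9925 to 12504, and the departure from the sum 4862 to 6775. The count against mock nilotinib ranged from 213 to 2793 and the count beyond all groups from 52 to 754. These last 2 were 1974 and 434 with DESeq2, 1987 and 448 with all genes of at least 1 count, 741 and 166 with limma on log2(FPKM + 1), and 694 and 153 with limma on log2(FPKM + 0.1). With a 2-fold minimum, counts were 5518 changed (3113 higher, 2405 lower), 565 against mock nilotinib, 4872 for mock nilotinib and 6474 for hemin DMSO against mock DMSO, 4073 departing and 101 beyond all groups. Apart from genes with smaller changes being dropped at 2-fold, the cause was not tested.

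With the replicate block the counts were 10134 in the main comparison, 1587 against mock nilotinib and 359 beyond all groups. Deviations from the group mean of same-numbered samples had r = -0.080, 0.092 and -0.034 across genes between hemin nilotinib and mock DMSO. They had r = 0.263, 0.199 and 0.254 between hemin nilotinib and mock nilotinib. By these deviations each hemin nilotinib sample was closest to the mock nilotinib sample of its own number. On log2 CPM itself, hemin nilotinib replicate 2 was about as close to mock nilotinib replicate 1 (r = 0.9785) as to replicate 2 (r = 0.9783). Genes are not independent replicates. Upper-quartile factors gave 59.5% higher among called genes, against 52.0%, and no composition factors 46.2%. The ZAK, p38 and NLRP1 median (0.03) fell to between -0.05 and -0.02 without composition factors or without mock DMSO replicate 1, mock nilotinib replicate 2 or 3 or hemin nilotinib replicate 2 or 3, and the reference gene median (-0.10) was 0.01 with upper-quartile factors. Other list medians kept their sign. By limma on log2(FPKM + 1) the myeloid median was -0.73 and the ERK target median -0.69, and with the 6 samples alone the lymphoid and non-blood median was -1.85. Without single libraries, TFRC ranged from -0.44 (without hemin nilotinib replicate 1) to 1.37, GATA1 from -0.0044 (without mock DMSO replicate 1) to 0.15, and MT-CO2 from -0.21 (without hemin nilotinib replicate 1; -0.0059 without mock DMSO replicate 1) to 0.32. Of 124 named genes, limma on log2(FPKM + 1) moved the fold of 36 by over 1.5 times and limma on log2(FPKM + 0.1) that of 19. With 1 to 3 counts in a group, depth limits the fold.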

Other observations

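The 5 protein-coding genes with the highest mean level per length in hemin nilotinib were MT-CO3, MT-CO2, MT-CO1, FTL and HBZ. The mitochondrial genes encode subunits of cytochrome c oxidase. MT-CO3 had 9491 ± 3665 FPKM in hemin nilotinib and 12356 ± 1899 FPKM in mock DMSO, and MT-CO2 had 10866 ± 4209 and 10063 ± 1440.4 FPKM (SD, n = 3). MT-CO1 had 10388 ± 3515 and 6928 ± 667 FPKM. None of these 3 passed the test against mock DMSO (edgeR adjusted p = 0.296, 0.736 and 0.106). MT-CO3 passed without hemin nilotinib replicate 1 (log2 fold change -0.69, adjusted p = 0.0344). MT-CO2 turned from 0.12 to -0.21 without that replicate and to -0.0059 without mock DMSO replicate 1. MT-CO1 passed without hemin nilotinib replicate 3 (0.77, 0.04) or hemin DMSO replicate 2 (0.60, 0.0312), and with all genes of at least 1 count tested (0.56, 0.00383). FTL had 9834 ± 2697 FPKM in hemin nilotinib and 2662 ± 528 FPKM in mock DMSO, so the ferritin light chain was among the most abundant messages per length beside zeta globin.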
